A study of Mus musculus with 17 samples.

Results

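Across 17 ATAC-seq libraries of sorted nucleus accumbens neurons, 12028 stretches of open chromatin lay far from any annotated gene start and were called as a peak in every library. They were found by merging overlapping peaks of all 17 libraries on chromosomes 1 to 19 and keeping the merged regions that held a peak of every library, lay more than 10 kb from any annotated transcription start site (TSS, GENCODE on mm10) and were under 3000 bp wide. These distal regions made up 4.33% of the 277655 merged regions, 33.3% of the 36170 regions called in all 17 libraries and 8.79% of the 136784 distal regions under 3000 bp. The members were thus chosen by the peak calls of all 17 libraries, their width and their distance to a TSS, and these are given as descriptions without a test.

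In ATAC-seq a transposase inserts sequencing adapters into DNA that nucleosomes leave exposed, so that reads pile up over open chromatin. Nuclei carrying the neuronal protein NeuN were sorted from the bilateral nucleus accumbens of C57BL/6 mice (C57BL/6J in the study's methods) aged 52 to 54 days, and each library pooled 3 animals. Females in diestrus, females in proestrus and males were each studied with and without cocaine, with 3 libraries per group except for 2 of cocaine-treated males. Cocaine mice received 10 mg/kg by intraperitoneal injection and were sacrificed 1 hour later. The labels name the other groups only as controls, and by the study's methods these mice got no cocaine and were the baseline time point. No vehicle injection is described for them. Cocaine, the injection with its handling, and the hour that followed therefore cannot be told apart in the comparisons below. Proestrus and diestrus are the estrous stages of high and of low estrogen, and the study asked how acute cocaine acts on neuronal chromatin in females of either stage and in males. For 1 diestrus cocaine sample, replicate 2, no stage is given among the characteristics, so its title supplied the group.

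Open chromatin far from gene starts consists largely of enhancers, short stretches where sequence-specific transcription factors bind and from which they act on genes at a distance, together with insulators bound by CTCF, the factor that anchors chromatin loops. Most neurons of the nucleus accumbens are medium spiny neurons, which release GABA and carry the dopamine receptors through which cocaine acts. AP-1 factors are dimers of Fos and Jun proteins, are made within an hour of strong neuronal activity and bind the letters TGACTCA at many neuronal enhancers.

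The sorted nuclei carried the promoter marks of such neurons. All 5 neuronal marker promoters and 9 of 10 medium spiny neuron marker promoters had a peak within 1 kb of a TSS in all 17 libraries, whereas 0 of 4 cortical excitatory, 1 of 4 oligodendrocyte, 0 of 4 astrocyte, 0 of 3 microglial and 0 of 3 endothelial markers did. Mbp, a myelin gene, was the oligodendrocyte marker with a peak in all libraries, and Gfap, an astrocyte gene, had one in 16. Column 7 of the peak files, the fold enrichment of reads at the summit over the background of that library, was the measure of openness used throughout. In sorted nuclei of mixed neuron types, more open chromatin per cell and more cells with that chromatin open cannot be told apart.

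Sequences of regions named in the cocaine comparisons below are shown first. Of the regions named below for the largest differences 8 carried an AP-1 motif, and for 5 of them the bases around it are printed on the forward strand of GRCm38 (the mm10 assembly), read from RefSeq, with the motif TGACTCA or its reverse complement TGAGTCA in capitals. The 5 were picked after their values were seen, to show the motif in regions named for a difference after cocaine. A role of the motif in these differences was not tested. In the order printed, the motif centres lay 77, -39, -31, 43 and -109 bp from the summit.
Ghsr, chr3:27446774-27446874: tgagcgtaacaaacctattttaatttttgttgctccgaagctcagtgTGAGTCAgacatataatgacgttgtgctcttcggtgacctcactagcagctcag
Tdrd3, chr14:87517512-87517612: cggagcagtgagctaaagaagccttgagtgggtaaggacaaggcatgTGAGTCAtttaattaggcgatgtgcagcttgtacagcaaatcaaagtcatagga
Aldoart1, chr4:72664530-72664630: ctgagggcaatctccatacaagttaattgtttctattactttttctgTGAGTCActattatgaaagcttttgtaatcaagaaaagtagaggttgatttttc
Perp, chr10:18861649-18861749: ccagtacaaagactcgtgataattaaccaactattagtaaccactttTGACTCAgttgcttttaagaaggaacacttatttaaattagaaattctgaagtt
Sstr1, chr12:58087318-58087418: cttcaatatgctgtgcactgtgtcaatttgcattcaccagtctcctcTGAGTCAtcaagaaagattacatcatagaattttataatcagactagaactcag

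For each of 4 factor motifs the region of highest median column 7 that holds it is shown in the same way, in the order AP-1, CTCF (CCA, any 2 bases, AG, any 2 bases, GGC), RFX (GTT, any base, CCATGG, any base, AAC) and MEF2 (CTA, any 4 bases, TAG), each searched on both strands within 150 bp of the summit. RFX factors are best known for genes of cilia, and MEF2 factors act in activity-dependent neuronal transcription. A match to a motif is a description of the letters and not a bound site.
Igf2bp3, chr6:49236362-49236462: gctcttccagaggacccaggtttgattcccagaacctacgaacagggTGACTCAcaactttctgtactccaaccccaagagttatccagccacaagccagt
Cadm3, chr1:173390143-173390243: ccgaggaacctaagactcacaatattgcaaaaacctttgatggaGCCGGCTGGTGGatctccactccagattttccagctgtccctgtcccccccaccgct
Tmem144, chr3:79867236-79867336: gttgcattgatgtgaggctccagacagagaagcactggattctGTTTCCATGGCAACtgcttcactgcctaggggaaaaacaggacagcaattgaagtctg
Rybp, chr6:100206975-100207075: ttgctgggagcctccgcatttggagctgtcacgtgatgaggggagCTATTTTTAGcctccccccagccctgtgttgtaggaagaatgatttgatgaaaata

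Most distal peaks were seen in few libraries or in nearly all. Of the distal regions under 3000 bp, 52233 were called in 1 library, the number fell to 2060 in 13 libraries, and then rose to 3181 in 16 and 12028 in all 17. The regions called in all 17 covered 16.1 Mb and were 215 to 2999 bp wide, with a median of 1200 bp and an interquartile range of 853 to 1719 bp. A single peak per library filled 51.1% of them, and the summits of the 17 libraries lay within 300 bp of each other in 79.0%. The regions just inside the distance limit lay 10003 bp (nearest to Aldh8a1) and 10004 bp (Lrrc3b) from a TSS, with median column 7 of 4.03 and 4.08, and those just outside lay at 9998 bp (Apbb2 and Adgrl3) with 9.91 and 13.1. At the width limit, 2999 bp (Lrrc7) and 2998 bp (Atrn) were inside, with 3.37 and 4.96, and a pair of regions of 3000 bp (Tent4a and Ctif) outside, with 3.70 and 13.3.

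**Figure D1:**
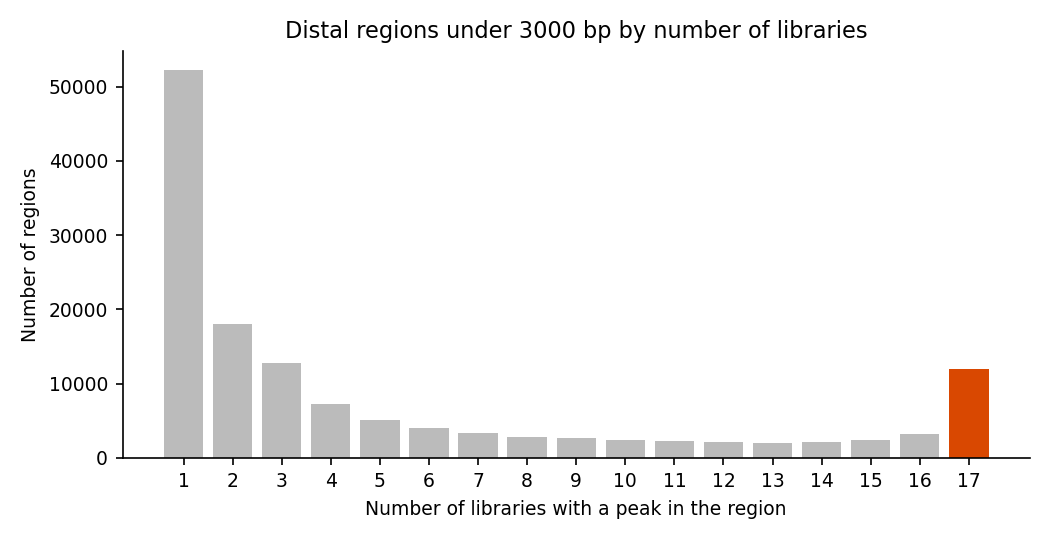
Number of distal regions under 3000 bp (vertical axis, from 0) by the number of libraries with a peak in the region (horizontal axis). The bar for 17 libraries, in orange, holds the 12028 regions described here and stands above the bars for 4 to 16 libraries.

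Column 7 of these regions was moderate and differed between libraries. Their median over libraries was 5.13, with 5% below 3.51 and 5% above 11.1, a lowest value of 2.68 and a highest of 310.4. Distal regions called in 9 to 16 libraries had a median of 3.22, those called in 2 to 8 libraries 2.84 and those called in 1 library 2.63, while regions within 1 kb of a TSS called in all libraries reached 10.5. A region of low enrichment is less often called, so these levels follow from the rule and are no finding.

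By library the median of the 12028 regions ran from 4.30 in male cocaine 2 to 6.53 in diestrus cocaine 1. The mean of library medians was 5.50 ± 0.094 (SD, n = 3) in diestrus controls, 4.68 ± 0.12 (n = 3) in proestrus controls, 6.24 ± 0.119 (n = 3) in male controls and 4.39 ± 0.128 (n = 2) after cocaine in males. Diestrus cocaine libraries spread from 4.59 to 6.53 around 5.72 ± 1.01 (n = 3), and proestrus cocaine libraries had 5.25 ± 0.345 (n = 3). Peaks per library on chromosomes 1 to 19 numbered 74532 to 155025, of which 9.20% to 17.3% fell in these regions, and male cocaine had the fewest peaks. At a median summit of 36 to 55 reads the counting error was 13.5% to 16.7% of a single value. Because the libraries differed so much as a whole, log2 column 7 was put on 1 common distribution (quantile normalisation over the 36170 regions called in all libraries) before groups were tested.

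**Figure D2:**
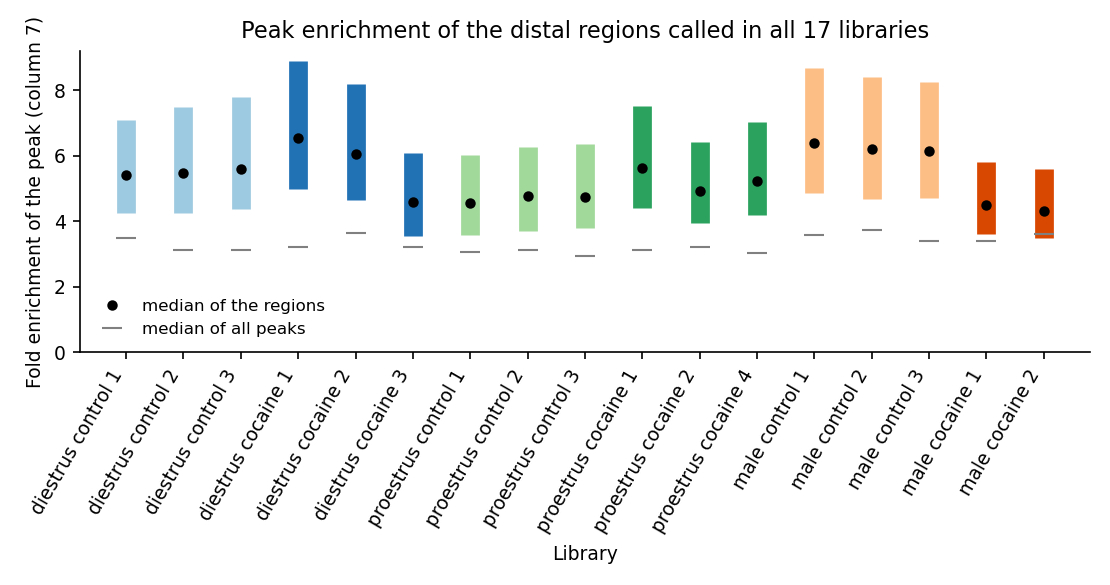
Column 7, the fold enrichment of a peak over background (vertical axis, from 0), of the 12028 distal regions in each of the 17 libraries (horizontal axis, coloured by group). Bars span the interquartile range of the regions, black points are medians and grey dashes are medians of all peaks of that library; the 3 male controls lie between 6.15 and 6.37 and the 2 male cocaine libraries at 4.30 and 4.48.

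The regions lay in introns and between genes in similar numbers. Introns held 49.2% (95% Wilson interval 48.3 to 50.1, 5922 regions) and intergenic sequence 43.5% (42.7 to 44.4, 5238 regions), with 5.26% at coding exons, 0.956% at untranslated regions and 0.998% at noncoding exons. Distal regions called in 1 library were 64.1% intronic (63.7 to 64.5) and 31.5% intergenic (31.1 to 31.9). The 12028 regions were thus more often intergenic, beyond counting error if regions are taken as independent. This held only under the width limit. The 1781 distal regions called in all libraries but 3000 bp or wider went the other way, with 15.3% intergenic and 62.5% intronic. Within the 12028 regions ranked by column 7 into 10 equal bins, the intergenic share went from 28.9% in the lowest bin to 55.0% in the highest. The median distance to any TSS was 28.4 kb and to a protein-coding TSS 53.1 kb (interquartile range 23.8 to 137 kb), and the farthest lay 2410 kb from one. The median gap to the next such region was 75.3 kb, and 14.9% had another within 10 kb. Per Mb of chromosome their number ran from 2.94 on chromosome 7 to 6.15 on chromosome 18.

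A nearest gene names the position of a region and was not tested as its target. The protein-coding gene with the nearest TSS was Nrxn3 for 38 regions and Rbfox1, a neuronal splicing factor, for 38. Nrxn3 encodes neurexin 3, a presynaptic adhesion protein, and all 38 of its regions lay within the gene body. They were followed by the postsynaptic scaffold Dlg2 (30), the RNA-binding protein Celf2 (28), the scaffold partner Dlgap1 (26), Auts2 (25), the AMPA receptor subunit Gria1 (25), the adhesion proteins Ntm (24) and Lsamp (23), and the netrin-G ligand gene Lrrc4c (23). Gene length moved with these counts. At least 1 region had its nearest TSS at 4424 of 20780 protein-coding genes (21.3%), but at 8.37% of genes in the shortest of 4 length classes and at 49.5% in the longest, and genes that held a region had a median length of 131 kb against 17.6 kb for all. Gria1 was denser per length, with 5.33 regions per 100 kb of gene against 2.36 at Nrxn3 and 1.52 at Dlg2. The densest single Mb was chr13:110000001-111000000 with 29 regions, around the phosphodiesterase gene Pde4d and the kinase gene Plk2, followed by the Mb over Nrxn3 with 28.

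The share of genes near a region was counted in 5 gene lists, beside 21.3% of all protein-coding genes. Of 25 axon guidance and adhesion genes all 25 were the nearest gene of at least 1 region (233 regions), as were 19 of 20 glutamate and GABA receptor genes (122 regions) and 23 of 31 medium spiny neuron genes (86 regions). Among activity-induced genes 7 of 20 were, with 5 regions each nearest to Egr3 and Nr4a3 and none to Fos, Fosb, Arc or Npas4 under this rule. Among glial and vascular genes 3 of 15 were (8 regions). Median gene length was 477 kb in the axon guidance and adhesion list, 395 kb in the receptor list, 41.2 kb in the medium spiny neuron list, 31.6 kb in the glial list and 7.04 kb in the activity-induced list, and the part of length in these shares was not tested.

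Medium spiny neuron genes had regions of widely differing enrichment around them. Drd1, the D1 dopamine receptor gene, was nearest to 12 regions, and the closest, chr13:54030035-54032868, lay 21.9 kb from its TSS with a median column 7 of 11.6. Its values were 11.9, 15.4 and 14.9 in diestrus controls, 16.6, 13.2 and 6.78 after cocaine in diestrus, 12.2, 12.4 and 11.6 in proestrus controls, 11.8, 10.8 and 9.53 after cocaine in proestrus, 10.6, 7.30 and 9.55 in male controls and 10.1 and 8.60 after cocaine in males. The male controls lay below all 6 female controls. Rarb, a retinoic acid receptor of striatal neurons, was nearest to 17 regions, the most of the list, the best of which had a median of 18.1. Single regions near Gad1 (10.2) and Gad2 (16.9 for the higher of its pair), which make GABA, near the dynorphin gene Pdyn (11.4 at 12.5 kb) and the substance P gene Tac1 (12.7 for its highest), and near the enkephalin gene Penk (13.8 for its highest) exceeded the median of all 12028. Over the 23 genes the closest region lay above that median for 13 and below it for 10, from 3.25 at Pde10a to 16.9 at Gad2. Those below included Penk (4.98), Rarb (5.03), Foxp1 (3.79), Meis2 (4.17) and Six3 (3.72).

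Of the 13 motifs searched, AP-1 differed most in percentage points between these regions and those called in 1 library. It stood within 150 bp of the summit in 2481 of the 12028 regions, 20.6% (95% Wilson interval 19.9 to 21.4). The share was 15.8% (15.3 to 16.4) in distal regions called in 9 to 16 libraries, 11.3% (11 to 11.5) in 2 to 8 and 7.08% (6.86 to 7.30) in 1 library, and 6.00% in TSS regions called in all libraries. RefSeq promoter windows of the same length held it in 5.26%. CTCF followed the same order among distal regions with 7.99% (7.52 to 8.49), 6.54%, 2.69% and 1.56%, and RFX with 0.790% (0.647 to 0.964), 0.376%, 0.133% and 0.067%. The motif CAGATG, an E-box bound by neuronal bHLH factors, had 24.1% here, against regions called in 9 to 16 libraries (24.5%) and 2 to 8 (25.5%), and the homeodomain letters TAATTA (13.1% against 13.6% and 12.7%) and MEF2 (7.08% against 7.28% and 6.52%) differed by under 1 percentage point. A MEF2 match can contain the homeodomain letters. Forkhead letters (TGTTTAC) went the other way, with 2.19% here and 5.12% in regions called in 1 library. The promoter-type motif of cAMP response elements (TGACGTCA) kept the order of AP-1 among distal regions, with 0.482%, 0.381%, 0.290% and 0.142%. It was rarer in all of these than in TSS regions called in all libraries (3.53%). None of the 13 motifs searched was found in 40.2% of the regions.

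Base composition moved with the same order. Median GC content of the 300 bp at the summit was 44.7% here, 43.3% in regions called in 9 to 16 libraries, 42.0% in 2 to 8 and 39.3% in 1 library, against 62.7% at TSS regions, and its part in the motif shares was not tested. AP-1 regions themselves had a median GC of 44.0% against 44.7% for the other 9547, and CTCF regions 47.7% against 44.3%. Over the same 10 bins of column 7, AP-1 went from 15.7% in the lowest to 25.2% in the highest, whereas CTCF went from 8.48% through 11.1% in the third bin to 3.66% in the highest. AP-1 regions had a median column 7 of 5.51 against 5.03 without the motif, and CTCF regions 4.76 against 5.17.

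**Figure D3:**
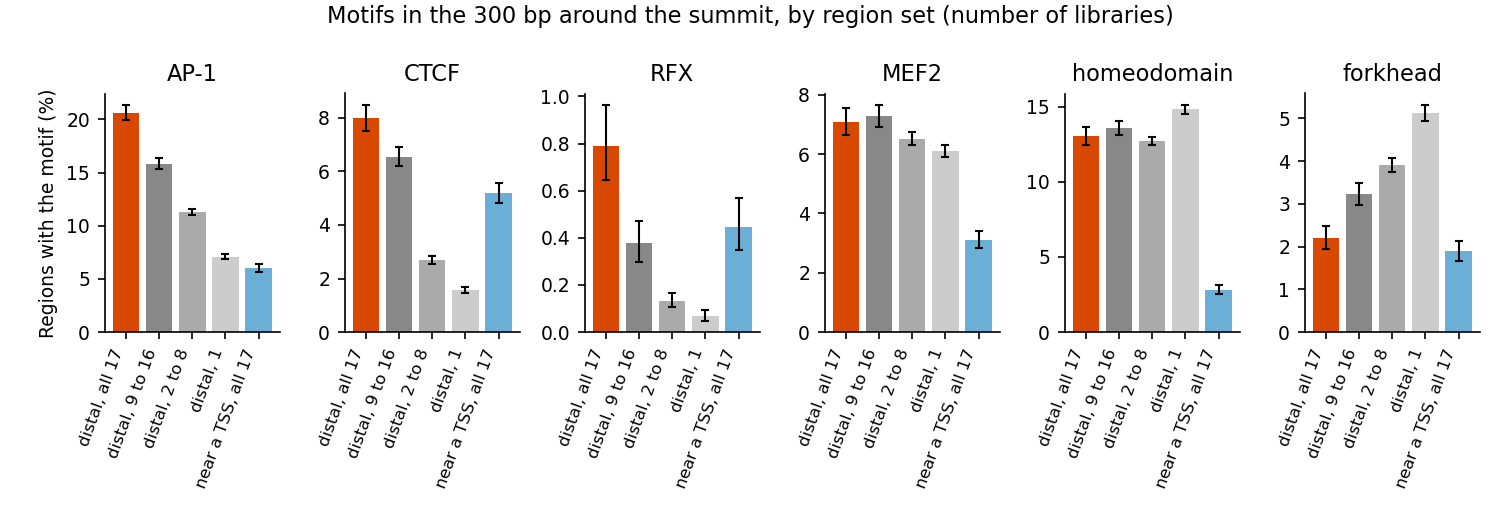
Percentage of regions with each of 6 motifs within 150 bp of the summit (vertical axes, from 0, each panel with its own scale) in distal regions by the number of libraries that called them and in TSS regions called in all 17; error bars are 95% Wilson intervals. AP-1 goes from 7.08% in regions of 1 library to 20.6% in regions of 17, and forkhead from 5.12% to 2.19%.

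Within a library, AP-1 regions stood higher above the others after cocaine in females. The log2 ratio of their median column 7 to that of the other regions, which multiplying a whole library by a constant cannot move, was 0.10, 0.087 and 0.10 in diestrus controls and 0.25, 0.26 and 0.21 after cocaine. In proestrus it was 0.066, 0.070 and 0.057 in controls and 0.27, 0.091 and 0.27 after cocaine, where library 2 stayed nearest to the controls. In males it was 0.058, 0.032 and 0.026 in controls and 0.070 and 0.078 after cocaine. The groups did not overlap in any of the 3 pairs, and the difference of group means was smallest in males. For CTCF regions the same ratio was -0.22, -0.25 and -0.29 in diestrus controls, -0.10, -0.11 and -0.12 in proestrus controls and -0.059, 0.063 and -0.026 in male controls, and after cocaine it overlapped the controls in diestrus (-0.35, -0.13 and -0.074) and in proestrus (-0.13, 0.061 and -0.15) but not in males (-0.072 and -0.080). For the 95 RFX regions it was 0.084, 0.032 and 0.075 in male controls and 0.34 and 0.22 after cocaine, while in females the cocaine libraries spread from -0.11 to 0.41. Quantile normalisation does shift the AP-1 ratio, for example to 0.23 in diestrus cocaine 1 and to 0.30 in proestrus cocaine 4. These scores over motif groups are descriptions and were given no test.

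Each comparison was then tested region by region with limma on the normalised log2 column 7 of all 36170 regions called in all libraries, with Benjamini-Hochberg adjustment over all of them and a threshold of 0.05. Since every region here was called in every group, gains from closed or losses to closed chromatin are outside these comparisons by construction. The controls of a group served several of the comparisons, which are therefore not independent of each other.

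In diestrus females few regions differed after cocaine. Of the 12028 regions 7 rose and 12 fell (0.158%), against 0.0995% of all regions tested (0.0332% higher, 0.0664% lower). Of the 7 that rose 6 carried AP-1, and 0 of the 12 that fell did, while with median centring 42 of 69 rises carried it. The median log2 difference over all 2481 AP-1 regions was 0.14, and -0.014 over the rest. The region nearest to Ghsr, the ghrelin receptor gene, chr3:27446436-27447298 in an intron of Fndc3b, had 3.74, 4.58 and 4.57 in controls and 10.1, 9.69 and 6.66 after cocaine. It rose 1.98-fold (log2 0.99, SE 0.15, limma adjusted p = 0.019). The region in an intron of Tdrd3, whose product reads methylated arginines, chr14:87517032-87518268, had 3.61, 3.35 and 3.53 in controls and 7.24, 8.80 and 5.40 after cocaine, and rose 1.94-fold (adjusted p = 0.030). The intergenic region nearest to Aldoart1, chr4:72664112-72665032, lay 121 kb from any TSS and 188 kb from that of Aldoart1. It had 4.13, 3.68 and 4.36 in controls and 7.72, 12.2 and 8.73 after cocaine, and rose 2.24-fold (adjusted p = 0.034). In none of these 3 did the groups overlap, and their AP-1 letters are those printed above.

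The same 3 regions in the other mice were as follows. In proestrus Ghsr had 3.38, 5.11 and 4.93 in controls and 6.91, 7.06 and 7.02 after cocaine (log2 0.59, adjusted p = 0.070), and the regions of Tdrd3 (log2 0.69, adjusted p = 0.038) and Aldoart1 (log2 0.86, adjusted p = 0.030) rose. In males Tdrd3 rose by less (3.06, 3.86 and 3.29 in controls and 3.94 and 3.6 after cocaine, log2 0.51 after normalisation, adjusted p = 0.040), although its unscaled values overlapped. Ghsr (log2 0.28, adjusted p = 0.23) and Aldoart1 (log2 0.19, adjusted p = 0.58) did not pass in males. The difference between the male effect and the mean female effect passed for Aldoart1 (log2 -0.82, adjusted p = 0.033) and not for Ghsr (log2 -0.51, adjusted p = 0.078) or Tdrd3 (log2 -0.31, adjusted p = 0.25).

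The 3 named regions that fell in diestrus looked unlike the rest. They were nearest to Pou4f1, Plxdc2 and 5730522E02Rik, were 392, 399 and 457 bp wide, and kept their summits within 9 bp over all 17 libraries, where the median range was 193 bp. The Pou4f1 region, chr14:104336792-104337183, had 13.8, 11.7 and 13.1 in diestrus controls and 5.94, 5.66 and 3.56 after cocaine (log2 -1.42, adjusted p = 0.0011), but also 35.4, 24.1 and 21.8 in proestrus controls against 4.01, 7.27 and 19.6 after cocaine. The Plxdc2 region fell by 1.37 and the 5730522E02Rik region by 1.48 on the log2 scale in diestrus (adjusted p = 0.0011 and 0.0015), and both were also highest in proestrus control 1, with 36.4 and 49.3. The 3 regions thus moved from library to library together, and in 1 genome search each matched its own place alone.

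The diestrus count rested on single libraries. Without diestrus cocaine 1 it was 3211, and without diestrus control 1, 2 or 3 or diestrus cocaine 2 or 3 it was 7, 4, 3, 3 and 8. Among the latter 5 fits only that without cocaine 3 called any rise (2), and the 3 named rises had adjusted p values of 0.081 to 0.27 in the fits where they did not pass. With the spread shared over all 17 libraries 484 rose and 587 fell, of which 227 and 53 carried AP-1, and with median centring 69 rose and 57 fell. The median over AP-1 regions stayed between 0.12 and 0.15 with any library left out, and that of the other regions between -0.033 and 0.001.

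In proestrus females rises outnumbered falls and AP-1 regions made up a large share of the rises. Of the 12028 regions 311 rose and 168 fell (3.98%), against 2.74% of all regions tested (1.41% higher, 1.33% lower). Among AP-1 regions 137 rose (5.52%) and 11 fell (0.443%), and among the 9547 others 174 rose (1.82%) and 157 fell (1.64%). AP-1 regions were thus 44.1% of the rises and 6.55% of the falls. The median log2 difference was 0.18 over AP-1 regions and 0.032 over the others. The intergenic region nearest to Perp, a p53 target and desmosome gene, chr10:18860746-18862107, had 3.70, 4.18 and 4.27 in controls and 8.91, 9.09 and 9.63 after cocaine, and rose 2.19-fold (log2 1.13, SE 0.13, adjusted p = 0.030). It also rose in males (log2 0.79, adjusted p = 0.0049) and had 5.29, 6.14 and 6.85 against 8.78, 12.1 and 9.19 in diestrus (log2 0.69, adjusted p = 0.064).

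The next regions held no AP-1 motif in the window, with 1 exception among the falls. The region nearest to Lrrc4c lay 101 kb from any TSS and 742 kb from that of Lrrc4c. It had 2.43, 2.67 and 2.46 in proestrus controls, the lowest values of all 17 libraries, and 5.21, 6.10 and 6.49 after cocaine (log2 1.21, adjusted p = 0.030). The region in the laminin gene Lama2 had 2.64, 2.78 and 3.03 against 6.91, 5.24 and 6.60 (log2 1.11, adjusted p = 0.030). Proestrus controls were low here against the other controls too, since both regions also differed between diestrus and proestrus controls (log2 0.79 and 0.81, adjusted p = 0.019 and 0.022). The leading falls were in introns of Gsg1l, an AMPA receptor auxiliary subunit (10.5, 11.3 and 12.3 against 6.11, 5.56 and 6.60, log2 -0.98), and Clstn1, a synaptic calsyntenin (5.07, 6.15 and 4.93 against 2.60, 2.57 and 3.25, log2 -1.07), and at a coding exon of the integrin gene Itga11, nearest to Fem1b, which does hold an AP-1 motif (7.81, 7.08 and 8.25 against 4.81, 4.28 and 4.08, log2 -0.94), each at adjusted p = 0.030.

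Base composition moved with the proestrus calls. The regions that rose had a median GC of 40.0% and those that fell 51.3%. With GC content levelled between libraries, a setting added after the data were seen, 238 rose and 221 fell, with 116 rises and 13 falls among AP-1 regions. The median over AP-1 regions was then 0.12 and over the others -0.012, and the part of GC content in the calls was not tested further. The count fell to 0 by limma without proestrus control 1, 2 or 3 or proestrus cocaine 1, with 2588, 2473, 2573 and 2559 regions at an unadjusted p under 0.05. It was 11 without proestrus cocaine 4 and 2405 without proestrus cocaine 2, the library whose AP-1 ratio lay nearest to controls. The AP-1 median stayed between 0.13 and 0.27 in all of these, and that of the others between 0.014 and 0.059. Without scaling 984 rose and 136 fell.

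In males more regions differed, and AP-1 regions did not lead the rises. Of the 12028 regions 772 rose and 1215 fell after cocaine (16.5%), against 12.3% of all regions tested (5.49% higher, 6.8% lower). Of AP-1 regions 178 rose (7.17%) and 234 fell (9.43%), and of the others 594 rose (6.22%) and 981 fell (10.3%), with medians of -0.022 and -0.044. Of 961 CTCF regions 16 rose (1.67%, against 6.83% without the motif) and 73 fell (7.60%, against 10.3%), both below the shares of the other regions (median -0.12), with 54 falls against 20 rises under median centring and 674 against 3 without scaling. Of 95 RFX regions 16 rose (16.8%, against 6.34% without the motif) and 3 fell (3.16%, against 10.2%; median 0.20). With median centring 1049 rose and 1088 fell, and without scaling 144 rose and 6780 fell, when the median of all 36170 regions was -0.39. Without male control 3 the count was 830, and without male cocaine 1 or 2 it was 824 and 815.

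The leading male falls were regions that stood out in male controls. The intergenic region nearest to Sstr1, a somatostatin receptor gene, chr12:58087049-58088157, had 17.3, 15 and 16.6 in male controls and 3.61 and 3.72 after cocaine (log2 -1.73, SE 0.14, adjusted p = 5.88e-05). Its 12 female values lay between 3.35 and 6.91, cocaine or not. The Slc24a2 region, in an intron of this calcium exchanger gene, had 12.2, 12.4 and 11.4 against 3.17 and 2.91 (log2 -1.60, adjusted p = 8.88e-05), and the Tbc1d30 region had 13.9, 11.7 and 12.4 against 3.28 and 2.67 (log2 -1.74, adjusted p = 8.88e-05). In each of the 3 the male cocaine values fell within or below the range of the females, and the male controls lay above every other library.

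The leading male rises had the opposite arrangement. The region in an intron of Dock2, an activator of Rac, chr11:34542851-34545144, had 9.94, 12.1 and 9.11 in male controls and 46.4 and 48.8 after cocaine, a 5.91-fold rise (log2 2.56, SE 0.17, adjusted p = 1.20e-05), while the female libraries ran from 11.9 to 21.8. The region nearest to Slc16a7, a lactate transporter gene, chr10:124544962-124545423, lay 763 kb from the TSS of that gene. It had 3.19, 4.41 and 3.4 against 17.6 and 17.7 (log2 2.54, adjusted p = 1.20e-05), and the females ran from 4.28 to 10.5. The region nearest to the vomeronasal receptor gene Vmn1r2, chr4:3089518-3091278, had 5.35, 5.37 and 4.83 against 14.1 and 13.6 (log2 1.77, adjusted p = 5.88e-05). It lay 76.0 kb from the TSS of that gene. Of its summit window 76.7% is masked as repeat sequence, although the genome search found no second copy. In all 3 the male cocaine libraries lay above every other library, and none passed the test in females (adjusted p = 0.12 to 0.33).

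**Figure D4:**
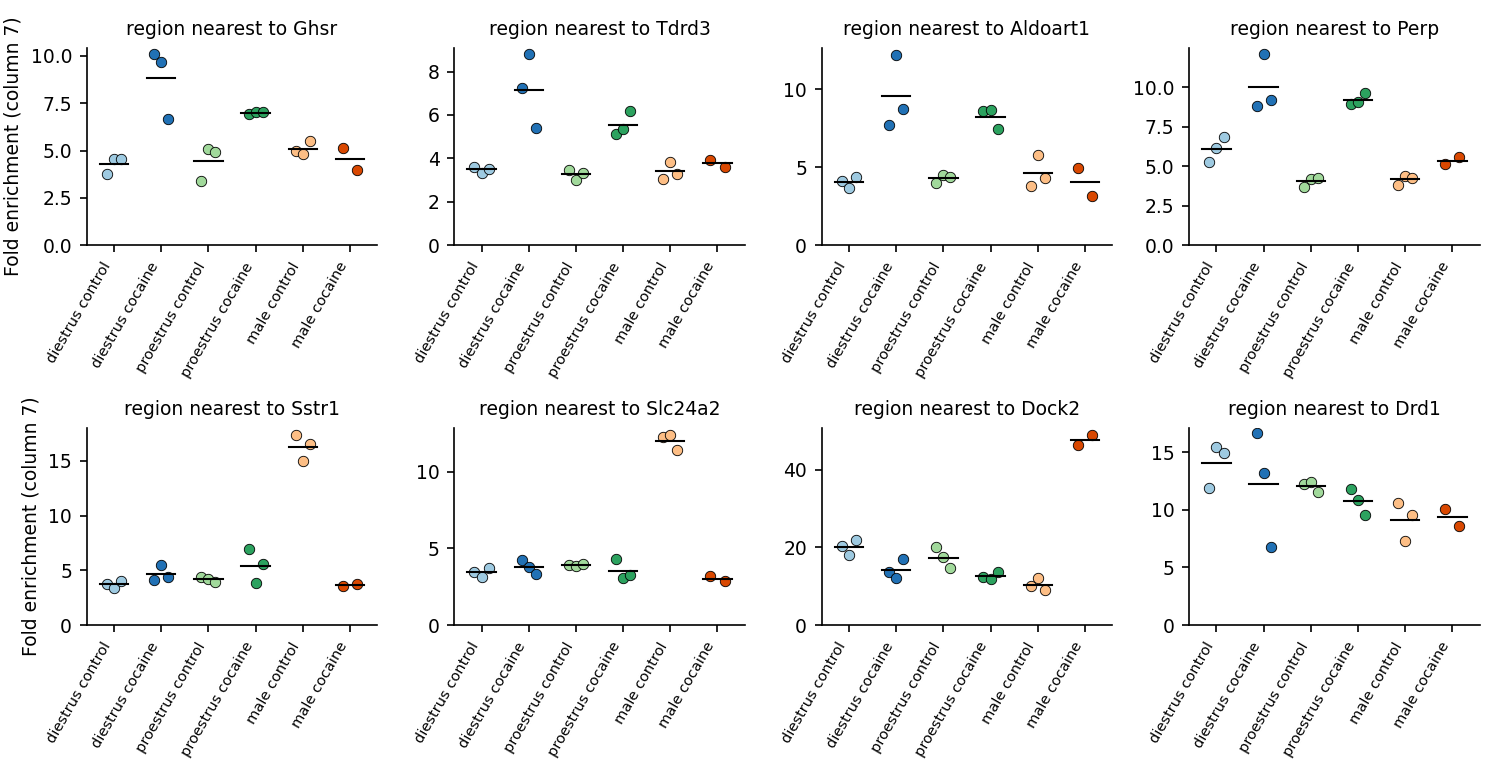
Column 7 (vertical axes, from 0, each panel with its own scale) of 8 distal regions, named by their nearest gene, in every library (points) by group (horizontal axis), with the group mean as a line. Ghsr, Tdrd3, Aldoart1 and Perp are higher after cocaine in both female stages, Sstr1 and Slc24a2 are high in the 3 male controls alone, Dock2 is high in the 2 male cocaine libraries, and at Drd1 the male controls lie below the female controls.

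Male and female controls differed at a larger share of regions than cocaine and control did in either female stage. Against diestrus controls 1890 regions were higher in males and 2231 lower (34.3%), against 29.3% of all regions tested (14.6% higher, 14.7% lower), and against proestrus controls 1611 were higher and 1290 lower (24.1%), against 20.9% of all (10.6% higher, 10.3% lower). CTCF regions were among the higher: 278 higher (28.9%) and 36 lower (3.75%) of 961 against diestrus (median log2 0.24, all 12028 regions -0.026). Without the motif these shares were 14.6% and 19.8%. Against proestrus 141 were higher (14.7%) and 29 lower (3.02%), and without the motif 13.3% and 11.4% (median 0.13, and 0.0053 for all). Without scaling CTCF regions kept this direction, with 488 against 15 and 639 against 5, while all 12028 gave 3264 against 1107 and 5920 against 214, and with median centring 1411 higher and 1692 lower against proestrus. Regions with the homeodomain letters went the other way, with 155 higher (9.87%) and 406 lower (25.9%) of 1570 against diestrus, and without the letters 16.6% and 17.5%. Against proestrus they had 139 (8.85%) and 244 (15.5%), and without the letters 14.1% and 10.0%. This direction was not checked under the other scalings. Median GC content was 47.7% in CTCF regions against 44.3% without the motif, and 41.3% with the homeodomain letters against 45.3% without them. Counts with GC levelled are given for neither motif here, and the part of GC content in these directions was not tested.

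Where regions of medium spiny neuron genes were called between controls, most were lower in males. The 86 regions belong to 23 genes, with 17 at Rarb, 12 at Drd1 and 8 at Meis2, and are not independent of each other. How many genes the calls came from was not counted. Of the 86 regions 5 were higher (5.81%) and 26 lower (30.2%) than in diestrus controls (median log2 -0.21). All regions tested gave 14.6% and 14.7%. Against proestrus controls 5 were higher (5.81%) and 24 lower (27.9%, median -0.27), where all regions tested gave 10.6% and 10.3%. Glutamate and GABA receptor genes leaned the same way, with 10 higher (8.20%) and 29 lower (23.8%) of 122 against diestrus. Against proestrus controls they had 9 higher (7.38%) and 16 lower (13.1%). The Drd1 region was 0.83 lower on the log2 scale than in diestrus controls (log2 -0.83, adjusted p = 0.00061) and log2 -0.80 against proestrus controls (adjusted p = 0.0019). With median centring the counts among the 86 medium spiny neuron regions were 5 against 27 and 4 against 31, and with GC levelled 7 against 26 and 6 against 26. Without scaling they were 12 against 20 and, reversed in direction, 18 against 5 with a median of 0.079 beside 0.36 for all 12028 regions. After cocaine 8 of the 86 rose and 6 fell in males, 1 rose and 0 fell in proestrus, and 0 rose and 0 fell in diestrus. Of the 233 regions of axon guidance and adhesion genes, 8 rose (3.43%) and 26 fell (11.2%) in males, where 6.42% of all 12028 rose and 10.1% fell, and in proestrus 7 rose (3.00%) and 4 fell (1.72%), where 2.59% of all rose and 1.40% fell. In males 7 of the 122 at receptor genes rose (5.74%) and 15 fell (12.3%), and of the 21 at activity-induced genes 0 rose and 2 fell (9.52%), shares of falls near that of all regions.

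The leading differences of male controls were large. Beside Sstr1 (log2 1.98 against diestrus, adjusted p = 5.58e-07), Tbc1d30 and Slc24a2, the regions nearest to G2e3 (10.8, 10.5 and 9.0 in males and 2.64, 3.02 and 2.84 in proestrus controls) and Palmd (13.5, 13.1 and 14.8 against 4.01, 3.95 and 3.70) were high in male controls alone. Sorl1, a sorting receptor gene, was nearest to a region with 5.61, 3.99 and 3.51 in male and 12.5, 13.6 and 14.9 in diestrus controls (log2 -1.82, adjusted p = 3.77e-06), but with 6.44, 5.69 and 6.63 in proestrus controls, so that the diestrus controls were the control group that stood out. The lower regions also included one nearest to Tmem196 (9.05, 8.40 and 9.33 against 17.3, 22.6 and 21.2) whose summit window had 617 near-identical copies in the genome, so its reads cannot be placed with certainty, and one nearest to Tcerg1l. Against proestrus controls the lower ones were at Polr3k (21.3, 18.6 and 23.8 against 43.4, 54.0 and 51.7), P4ha2, which holds a CTCF motif (11.6, 9.36 and 12 against 22.4, 24.5 and 29.7), and Fam174a. Against proestrus controls the count was 1617 without male control 3.

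Diestrus and proestrus controls differed at few regions. In diestrus 197 were higher and 43 lower (2.00%), against 1.34% of all regions tested (0.959% higher, 0.379% lower). The region nearest to 4930564D02Rik had 8.13, 7.70 and 9.34 in diestrus and 3.38, 2.78 and 3.13 in proestrus controls (log2 1.28, adjusted p = 0.0094), without overlap, and a region in the tight junction gene Patj had 5.16, 6.59 and 6.02 against 2.53, 2.78 and 2.84 (log2 0.97, adjusted p = 0.0096). The lower regions were nearest to Kctd16, a GABA-B receptor auxiliary subunit (log2 -0.76, adjusted p = 0.019), Polr3k (log2 -0.72) and Stmn2 (log2 -0.67, both adjusted p = 0.022). All counts hung on single libraries, with 139, 49, 4, 24, 25 and 88 regions without diestrus control 1, 2 or 3 and proestrus control 1, 2 or 3, and on scaling, with 270 against 147 under median centring and 2242 against 24 without scaling.

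**Figure D5:**
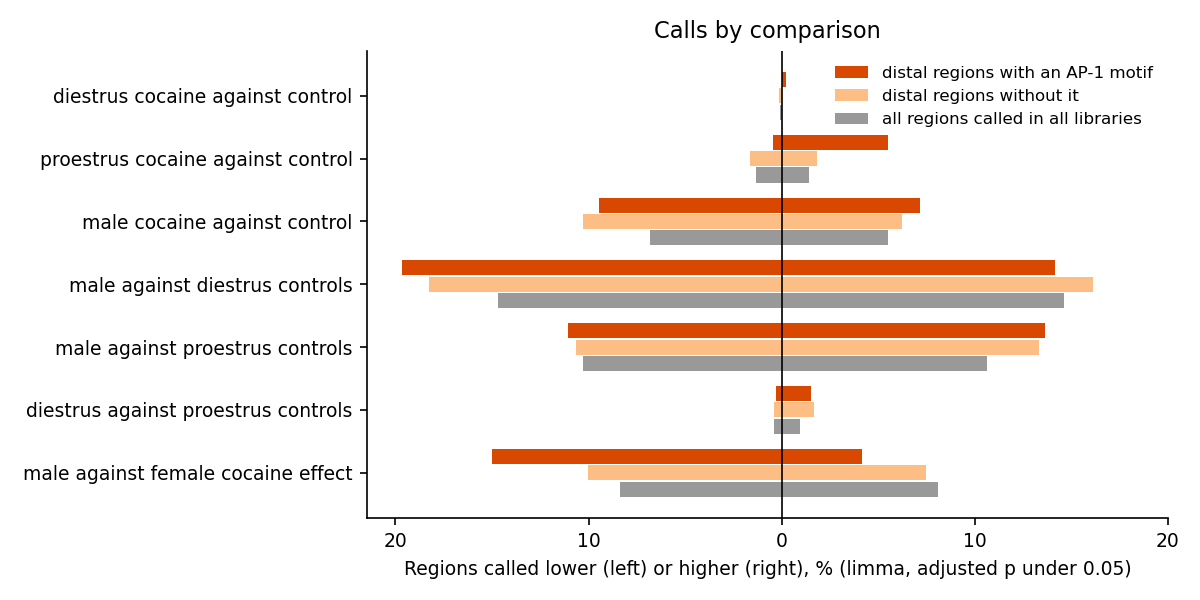
Percentage of regions called lower (left of 0) or higher (right of 0) by limma at an adjusted p under 0.05 in each of 7 comparisons (rows), for the 2481 AP-1 regions, the 9547 distal regions without the motif and all 36170 regions called in all libraries. In proestrus 5.52% of AP-1 regions are higher and 0.443% lower after cocaine, and in the male against female comparison of cocaine effects 15% are lower and 4.15% higher.

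The difference between the male effect of cocaine and the mean female effect, tested in 1 fit of all 17 libraries, passed at 2146 regions (17.8%), against 16.5% of all regions tested (8.11% higher, 8.37% lower). Among AP-1 regions 103 were higher in males and 372 lower (4.15% and 15%), and among the 9547 others 715 and 956 (7.49% and 10.0%). The medium spiny neuron list had 14 higher (16.3%) and 1 lower (1.16%) of 86, beside the 8.11% and 8.37% of all regions tested. Without scaling these counts became 0 and 24.

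The regions of highest enrichment were of another kind. The 10 highest had a median column 7 of 42.2 to 310.4, and the windows of 4 of them matched more than 1 place in the genome (at least 95% identity over 200 bp), as did 7 of the next 110 and 0 of 119 taken at every 100th rank below. None of those checked matched mitochondrial DNA. The highest of all lay in an intron of Chl1, a neural adhesion gene, chr6:103648936-103649424. It had 316, 389 and 375 in diestrus controls, 263, 290.3 and 403 after cocaine in diestrus, 312, 310.4 and 301 in proestrus controls, 264, 339 and 301 after cocaine in proestrus, 218, 240.3 and 224 in male controls and 428 and 422 after cocaine in males, and it matched 2 places. None of the 7 comparisons passed for it on the normalised scale, and male cocaine against control gave log2 0.085 (adjusted p = 0.73). Quantile normalisation sets a value by its rank within the library, so a region near the top rank everywhere gets similar values in all libraries. For this region the normalised comparisons therefore cannot decide whether its column 7 differed. On the unscaled values the male cocaine libraries (428 and 422) lay above every other library, and the male controls (218, 240.3 and 224) lay below. The region nearest to Rab10 matched 87 places, that nearest to Pdia4 14 and that at Filip1l 3. The bases around the summit of each are printed with CpG dinucleotides in capitals.
Chl1, chr6:103649156-103649256: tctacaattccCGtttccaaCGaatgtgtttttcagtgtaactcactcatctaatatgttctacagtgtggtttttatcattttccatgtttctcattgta
Gm8797, chr3:5860589-5860689: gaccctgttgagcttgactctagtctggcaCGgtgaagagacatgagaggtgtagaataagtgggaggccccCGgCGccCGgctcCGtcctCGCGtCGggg
Rab10, chr12:3109921-3110021: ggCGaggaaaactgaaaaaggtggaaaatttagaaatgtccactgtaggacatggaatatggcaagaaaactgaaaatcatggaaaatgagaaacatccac
Filip1l, chr16:57391464-57391564: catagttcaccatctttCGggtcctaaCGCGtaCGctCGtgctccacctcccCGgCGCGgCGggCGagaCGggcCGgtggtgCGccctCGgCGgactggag
BC048403, chr10:121763198-121763298: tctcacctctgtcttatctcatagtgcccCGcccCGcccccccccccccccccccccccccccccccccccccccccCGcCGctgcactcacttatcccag
Hic2, chr16:17222300-17222400: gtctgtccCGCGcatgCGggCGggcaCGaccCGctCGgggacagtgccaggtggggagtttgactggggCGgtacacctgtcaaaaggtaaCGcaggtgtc
Ddhd1, chr14:45812784-45812884: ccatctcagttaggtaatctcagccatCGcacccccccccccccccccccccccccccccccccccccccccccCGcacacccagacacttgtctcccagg
Pdia4, chr6:47748444-47748544: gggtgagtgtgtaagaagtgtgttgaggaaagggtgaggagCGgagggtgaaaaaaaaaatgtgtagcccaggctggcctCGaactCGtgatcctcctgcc
Gtpbp4, chr13:9011751-9011851: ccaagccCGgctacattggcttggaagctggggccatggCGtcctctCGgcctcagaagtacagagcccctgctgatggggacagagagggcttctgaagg
Klrb1c, chr6:128803171-128803271: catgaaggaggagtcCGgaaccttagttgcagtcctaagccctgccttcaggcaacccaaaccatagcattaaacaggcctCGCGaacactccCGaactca

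The 10 regions differed in sequence. The BC048403 and Ddhd1 regions hold a run of 42 and 44 identical bases, and the Gm8797 and Filip1l windows of 300 bp hold 25 and 36 CpGs where the median region has 3. The Gm8797, Filip1l and Hic2 regions also went together by library, being highest in diestrus control 2 (336, 277 and 212) and diestrus control 3 (276, 233 and 172) and low in diestrus cocaine 3 (85.7, 70.5 and 43.0). Klrb1c, a receptor gene of immune cells, was nearest to the widest of the 10 (2886 bp), which had 32.4 to 60 over the libraries. No list of problem regions was applied to the peaks here, and these 10 are few beside the 12028.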

How the data were processed

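The authors trimmed adapters, aligned reads to mm10 with BWA-MEM and called peaks in each library with MACS2, as the study's methods and the submitters' processing notes state; versions and options were not given in the sources used here. The deposited peak files give for every peak a fold enrichment at the summit (a ratio to background, column 7), -log10 p and q values and a score; these files hold no read counts. Here peaks were merged at an overlap of 1 bp, a region's value in a library being the highest column 7 of its peaks. All fold enrichments under 60 were whole multiples of a step per library, within 0.0002 plus 2e-05 of the value, from which a background of 6.26 to 9.55 reads followed. TSSs and locations came from GENCODE, sequence from RefSeq GRCm38. Log2 column 7 of 36170 regions was quantile-normalised and fitted with limma 3.58.1 (R 4.3.3), using the libraries of the groups compared, and all 17 for the male against female effect. Alternatives were median centring, no scaling, peaks of -log10 q of at least 5, a replicate block, 1 fit of all libraries, leaving out each library and GC levelling. On simulated data in which 100 of 36170 regions were changed at each size, a log2 change of 1 was recovered for 16 (male cocaine) to 63 regions and one of 0.5 for at most 3. Motif windows and copies were searched with Python 3.11.15 and BLAST 2.17.0. Named regions were, per comparison and direction, the 3 of smallest p past the threshold, the 10 of highest median column 7, the region nearest to each medium spiny neuron gene, and those next to the limits. The regions and lists were chosen with earlier results of these data known.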

Additional observations from a re-analysis of the deposited data

Results flagged for a closer look

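The effect of cocaine in males minus the mean effect in the 2 female stages was tested in 1 limma fit of all 17 libraries, and differed at 2146 of the 12028 distal regions (17.8%, adjusted p under 0.05), against 16.5% of all 36170 regions. Of these 818 were higher and 1328 lower in males, and with median centring 1020 and 1124, but without scaling 80 and 5346. AP-1 regions were lower at 372 and higher at 103, with median centring at 330 and 133. The count was 1009 without male control 2, 1347 without male control 3, and 826 and 731 without male cocaine 1 or 2.

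The named differences were log2 3.10 at the region nearest to Dock2 (SE 0.29, adjusted p = 5.93e-06), 3.01 at Slc16a7 (SE 0.29, adjusted p = 5.93e-06) and 2.18 at Vmn1r2 (SE 0.27, adjusted p = 0.00010) on the higher side. On the lower side they were log2 -2.00 at Sstr1 (adjusted p = 5.00e-05), -1.53 at Slc24a2 (adjusted p = 5.00e-05) and -1.74 at Ide, the insulin-degrading enzyme gene, whose AP-1 region had 18.4, 13.8 and 16 in male controls and 3.72 and 4.30 after cocaine (adjusted p = 4.74e-05). Groups of 3 or fewer libraries are too small for a test of single outlying libraries, and none was made.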

How the results depend on the processing

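Requiring 20 kb to a TSS left 8018 regions, and other limits and leaving out a library gave within 1.5 times 12028. Counts of changed regions moved by over 1.5 times at these settings. In diestrus they were 126 with median centring, 8 without scaling, 11 at -log10 q of at least 5 (where fewer regions were tested) and 1071 in 1 fit of all 17 libraries. In proestrus they were 1120 without scaling, 317 at the stricter q and 782 in the joint fit. Without scaling males gave 6924, male against proestrus controls 6134, diestrus against proestrus controls 2266 and the male against female effect 5426; for diestrus against proestrus controls median centring gave 417 and the joint fit 93. The cause was not tested. Leaving out 1 library gave 3 to 3211 in diestrus, 0 to 2405 in proestrus, 815 to 1781 in males, 2751 to 3993 for male against diestrus controls, 1617 to 2588 for male against proestrus controls, 4 to 139 for diestrus against proestrus controls and 731 to 3195 for the male against female effect. Where 1 male cocaine library was left, it was assumed to vary like the others.

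Shared replicate numbers were not used to pair libraries in the main fits. Deviations of same-numbered libraries from their group means correlated at -0.25 to 0.15. With so few libraries per group these correlations cannot exclude a pairing. With the number as a block the counts were 217 in proestrus (121 higher, 96 lower) and 1176 in males, and within 1.5 times elsewhere. Of the regions named for a difference, each refitted for its own comparison, none turned direction; 487 refits kept the threshold and 56 lost it, 2 of these without scaling and the rest with 1 female library left out. The depth limits single values to an error of 13.5% to 16.7%, which covers counting alone.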
